A study of Mus musculus with 9 samples.

Results

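Transcript levels of 10 transcription factors that set dendritic cell (DC) lineages were examined in DCs sorted from mouse spleens: Zbtb46, Batf3, Id2, Nfil3, Bcl6, Zeb2, Klf4, Tcf4, Spi1 and Runx3. The factors were taken by gene name and make up 10 of the 54532 genes listed. All 10 were among the 12746 genes that passed a filter on low values, being at 1 FPKM (fragments scaled to gene length and library size) or higher in 3 or more samples. RNA-seq was performed on 3 groups of 3 samples each. N-mDCs were mature conventional DCs (cDCs) with CD11c and high MHCII from healthy mice, T-mDCs were the same kind of cell from mice with T-cell acute lymphoblastic leukemia (T-ALL), and T-DCs were CD11c+ cells with low MHCII from leukemic mice. The mice were young adult females on the C57BL/6 background. Leukemia was induced with the intracellular domain of Notch1, carried with GFP by a retrovirus, and spleens were taken at a late stage after transfer of leukemia cells into hosts that were not irradiated, so each host kept its own DCs. Neither the labels nor the methods say whether a sample was 1 spleen or a pool.

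cDCs arise from bone marrow progenitors and divide into cDC1, which take up dead cells and present their antigens to CD8+ T cells, and cDC2, which mainly prime CD4+ T cells. Plasmacytoid DCs (pDCs) form a separate branch that secretes type I interferon. Spi1, also called PU.1, is an ETS-family factor needed by every myeloid cell, Zbtb46 marks the cDC branch, and Batf3 with Irf8 maintains cDC1. Between progenitor and cDC1, Nfil3 represses Zeb2, which itself represses Id2, and Id2 blocks E proteins such as Tcf4, the factor that commands the pDC fate. Klf4 acts in cDC2 and monocytes, Bcl6 is a repressor used by cDC1 and by follicular T and B cells, and Runx3 is a Runt factor of cytotoxic lymphocytes and of DCs.

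Promoter windows at RefSeq starts are shown for the 3 factors that were lower in T-DCs than in either mature group, Batf3, Zbtb46 and Runx3. The windows run from 250 bases before to 50 bases after a RefSeq transcript start (GRCm38.p6, the patch release of mm10), on the strand of the gene, and capitals mark matches to 7 short motifs of factors in the set, searched on both strands. The motifs were the Spi1 core GAGGAAG, the E-box CAGGTG used by Zeb2 and E proteins, the AP-1 site TGANTCA bound by Batf3 with a partner, the Runx site TGTGGT, the Klf site GGGNGTGG, the Nfil3 site TTANNTAA and the Bcl6 site TTCCNNGAA.
Batf3 promoter, chr1:191098164-191098463, plus strand: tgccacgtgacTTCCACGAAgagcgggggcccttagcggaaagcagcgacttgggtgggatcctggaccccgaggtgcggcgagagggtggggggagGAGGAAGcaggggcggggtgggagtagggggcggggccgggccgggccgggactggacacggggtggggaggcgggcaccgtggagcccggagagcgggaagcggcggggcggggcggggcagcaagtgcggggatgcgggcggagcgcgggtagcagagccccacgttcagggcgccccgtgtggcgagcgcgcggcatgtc
Zbtb46 promoter, chr2:181424339-181424638, minus strand: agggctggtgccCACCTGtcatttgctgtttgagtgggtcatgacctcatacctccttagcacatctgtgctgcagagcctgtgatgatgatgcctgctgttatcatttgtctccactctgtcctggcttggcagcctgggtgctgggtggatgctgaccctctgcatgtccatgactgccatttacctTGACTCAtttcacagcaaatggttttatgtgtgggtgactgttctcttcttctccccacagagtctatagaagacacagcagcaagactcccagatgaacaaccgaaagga
Runx3 distal promoter, chr4:135120395-135120694, plus strand: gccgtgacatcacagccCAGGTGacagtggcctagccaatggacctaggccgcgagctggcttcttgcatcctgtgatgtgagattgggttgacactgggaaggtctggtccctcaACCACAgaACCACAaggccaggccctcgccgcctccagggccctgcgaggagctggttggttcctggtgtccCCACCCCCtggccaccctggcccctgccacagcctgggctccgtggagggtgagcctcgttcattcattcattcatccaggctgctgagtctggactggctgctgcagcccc
Runx3 proximal promoter, chr4:135152295-135152594, plus strand: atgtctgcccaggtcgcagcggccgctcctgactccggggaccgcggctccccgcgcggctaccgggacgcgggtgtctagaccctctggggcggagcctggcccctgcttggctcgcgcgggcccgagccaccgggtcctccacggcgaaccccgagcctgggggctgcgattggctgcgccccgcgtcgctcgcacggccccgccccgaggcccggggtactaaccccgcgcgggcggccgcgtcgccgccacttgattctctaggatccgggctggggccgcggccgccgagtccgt
The Batf3 window had a Spi1 core beginning at -153 and a Bcl6 site at -239, counted from the transcript start. In the Zbtb46 window an E-box lay at -238 and an AP-1 site at -61. The bases just before its start, ctccccacag, have the form of a splice acceptor. This window may therefore be the edge of an internal exon rather than a promoter, and its matches and GC content are given with that limit. The distal Runx3 window held an E-box at -233, a pair of Runx sites at -134 and -126 and a Klf site at -62, whereas the proximal one held no match to these letters. Such matches are common. Among 32851 promoters of the same length, 13.6% held the Spi1 core, 20.2% the E-box, 7.81% the AP-1 site, 16.8% the Runx site, 17.6% the Klf site, 6.0% the Nfil3 site and 4.81% the Bcl6 site. GC content separated the windows: 75.7% in Batf3, 63.7% and 77.3% in Runx3 and 50.7% in Zbtb46, against a median of 52.7% over all promoters. The Batf3 and Zbtb46 windows lie inside the gene spans of the deposited table, which begin at 191097847 on chromosome 1 for Batf3 and, read on the minus strand, at 181459426 on chromosome 2 for Zbtb46, and no measurement here tells which start the cells used. RefSeq windows were found for 8 of the 10 factors.

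The samples held 15360815 to 18440913 reads on genes. Itgax, which encodes CD11c, was detected in every sample at 43.0 to 230 FPKM. The 7 DC-defining genes tested include Itgax. All 7 had log2 differences below 0 in T-DCs against either mature group, and 6 were called lower in each comparison. Among the called genes were H2-Aa and H2-Ab1, which encode the MHCII used in the sort, and Cd74, the MHCII chaperone. The cytokine receptor gene Flt3 was at 59.2 ± 17.7 FPKM (SD, n = 3) in N-mDCs, 8.66 ± 5.88 in T-DCs and 79.5 ± 14.5 in T-mDCs. Red cell genes stood out in 2 libraries: the summed level of 10 erythroid genes was 58410 and 42380 FPKM in T-DC samples 2 and 3 (5.19% and 4.04% of their reads), but 609 in T-DC sample 1, 99.9 to 5363 in N-mDCs and 14.7 to 181 in T-mDCs. Neutrophil genes followed them, at a summed 4218 and 1491 FPKM in T-DC samples 2 and 3 and 13.1 in T-DC sample 1. T-mDC samples 2 and 3 were closer to each other than any other pair, with a chi-square of 1.85 per gene where the other pairs within a group had 8.11 to 36.2. This exceeded the sampling noise of 1, and they were kept as separate samples. It cannot tell whether they came from separate mice or from a shared source. Values without T-DC samples 2 and 3 are given beside many of the results. That fit leaves 1 T-DC sample and takes its spread from the mature groups. T-DC pairs with sample 1 had chi-squares of 28.4 and 36.2 per gene, where pairs within the mature groups had 1.85 to 16.1. Its p-values therefore understate the spread of T-DCs. In that fit the median log2 difference of the 7 DC-defining genes was -1.84 from N-mDCs and -2.28 from T-mDCs.

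Over the 3 groups, 3 of the 10 factors differed (Zbtb46, Batf3 and Runx3; limma F-test with Benjamini-Hochberg adjustment over all tested genes, threshold 0.05), where 18% of all tested genes did. In T-DCs against N-mDCs, 4 factors fell and no factor rose, beside 16.4% of all genes called, 10.3% lower and 6.1% higher. In T-DCs against T-mDCs, 3 factors fell, beside 14.2% of all genes called, 8.79% lower and 5.44% higher. All T-DC samples were below all N-mDC samples for 4 factors, where 32.4% of all genes did not overlap in either direction and 16.4% were lower in this way, and below all T-mDC samples for 3, where these shares were 34.9% and 18.1%. The 2 comparisons share the T-DC samples and are not independent, and in bulk RNA fewer cells of a type and less RNA per cell cannot be told apart. The median log2 difference of the 10 factors was -0.74 in the first comparison and -0.71 in the second, with 0.05 and 0.07 over all tested genes. Among the 704 tested genes that the table assigns to a transcription factor family, 18.2% were called against N-mDCs (10.9% lower) and 15.1% against T-mDCs (10.4% lower).

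**Figure D1:**
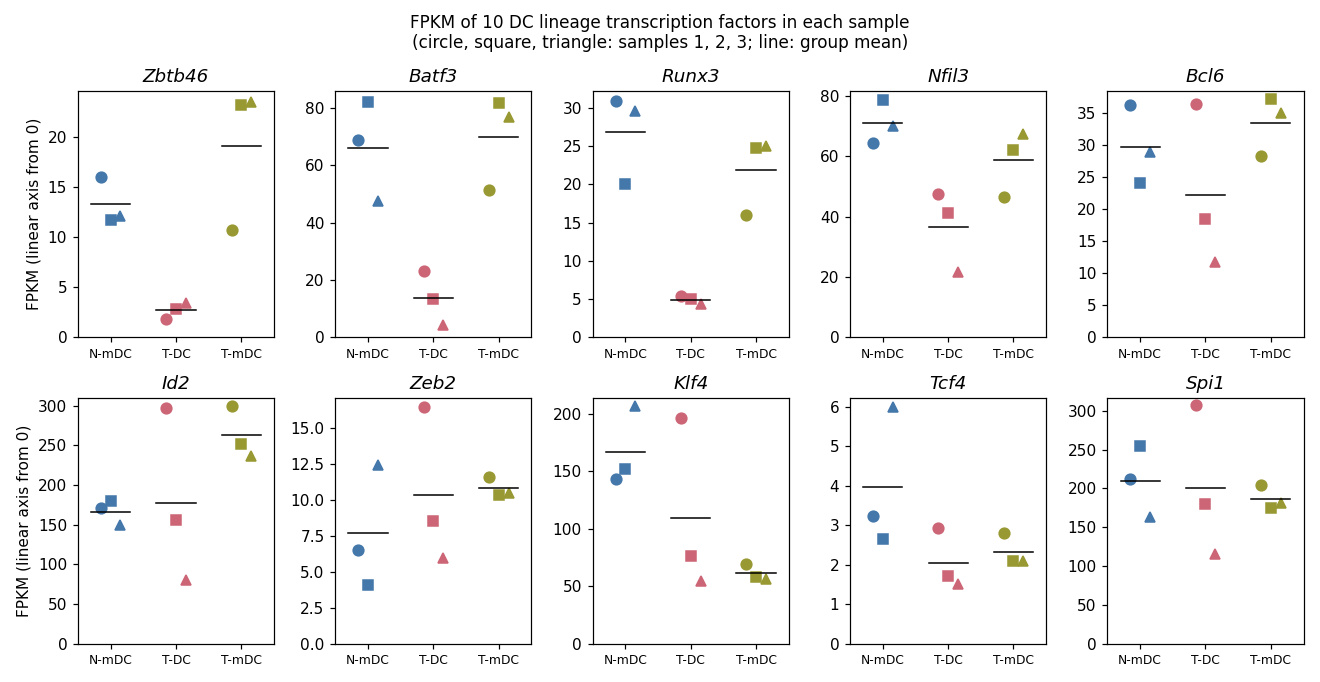
FPKM of the 10 factors in each of the 9 samples, 1 panel a gene, on linear axes from 0; points are samples (circle, square and triangle for samples 1, 2 and 3) and lines are group means. All T-DC samples lie below all samples of both mature groups for Zbtb46, Batf3 and Runx3, while Spi1 overlaps between the groups, and T-DC sample 1 is the highest T-DC sample for every factor but Zbtb46.

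Zbtb46 (ENSMUSG00000027583, chr2:181387762-181459426 in mm10) encodes the zinc finger repressor that separates cDCs from other myeloid cells. Its FPKM was 16.0, 11.7 and 12.1 in the N-mDC samples, 1.84, 2.84 and 3.42 in the T-DC samples and 10.7, 23.1 and 23.5 in the T-mDC samples. Every T-DC sample was below every mature sample. The difference on the log2(FPKM + 1) scale, on which all differences are given, was -1.96 from N-mDCs (SE 0.31, limma adjusted p = 0.00554), and that from T-mDCs was -2.39 (SE 0.31, limma adjusted p = 0.00288). By level Zbtb46 ranked 177 of the 704 transcription factor genes in N-mDCs, 133 in T-mDCs and 488 in T-DCs. T-DC sample 1, with few red cell reads, had the lowest value of all. With T-DC samples 2 and 3 both left out, so that only sample 1 stood for T-DCs, the differences were -2.32 and -2.75.

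Batf3 (ENSMUSG00000026630, chr1:191097847-191108945) encodes a bZIP factor without which cDC1 are lost. It was at 68.8, 82.0 and 47.7 FPKM in N-mDCs, 51.5, 81.8 and 76.8 in T-mDCs and 23.1, 13.4 and 4.37 in T-DCs. The T-DC samples again lay below all others, and on a log scale they differed among themselves more than the samples of either mature group. Group means were 66.2 ± 17.3 FPKM (SD, n = 3), 13.6 ± 9.35 and 70.0 ± 16.3. The log2 difference was -2.41 against N-mDCs (95% interval -3.55 to -1.28, limma adjusted p = 0.0147) and -2.50 against T-mDCs (-3.64 to -1.37, limma adjusted p = 0.0142). Among transcription factor genes Batf3 went from rank 36 in N-mDCs and 28 in T-mDCs to rank 181 in T-DCs, the 21st largest decrease of 704 against N-mDCs and the 15th against T-mDCs. Its lowest value, in T-DC sample 3, still rested on 106 recovered reads. The call against N-mDCs was lost without N-mDC sample 1 or 2 (limma adjusted p = 0.0553 and 0.0504) and the call against T-mDCs without T-mDC sample 2 or 3 (0.0708 and 0.0692). With T-DC samples 2 and 3 left out, the differences were -1.45 and -1.53 (limma adjusted p = 0.0723 and 0.0603).

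Runx3 (ENSMUSG00000070691, chr4:135120652-135177990) had the smallest spread of the factors within T-DCs. Its values were 30.9, 20.1 and 29.6 FPKM in N-mDCs, 15.9, 24.8 and 25.1 in T-mDCs and 5.36, 4.97 and 4.33 in T-DCs. No T-DC sample reached the lowest mature sample. The log2 difference was -2.22 against N-mDCs (SE 0.24, limma adjusted p = 0.00128) and -1.94 against T-mDCs (SE 0.24, limma adjusted p = 0.00234), and it was past the threshold in 24 of 24 alternative settings in the first comparison and in 23 of 24 in the second. Runx3 is also transcribed in NK and CD8+ T cells. The summed level of 8 NK cell genes was 54.0 to 158 FPKM in N-mDCs, 1.65 to 3.52 in T-mDCs and 1.52 to 30.0 in T-DCs, with Ncr1, the NK receptor gene, at 0.0344 to 0.605 FPKM in T-mDCs. Of the 8 NK cell genes, 7 were called lower in T-DCs and 8 in T-mDCs, both against N-mDCs. The 13 T-lineage genes summed to 129 to 166 FPKM in N-mDCs, 103 to 224 in T-mDCs and 17.4 to 110 in T-DCs, and the part of either list in the Runx3 difference was not tested. Cd3e, of the T cell receptor complex, stayed at or below 1.52 FPKM in all samples, but other genes of the list differed. Of the 10 tested, Cd8a (-2.79) and Cd8b1 (-2.18) were called lower in T-DCs against N-mDCs. Cd8a is also a marker of splenic cDC1, and which cells its reads came from was not tested. Against T-mDCs, Tcf7 (-3.84) and Cd8a (-3.62) were called lower, while 7 of the 10 lay above 0 with 0 called higher. An antisense gene within Runx3, Gm16224, reached 1.55 FPKM and could share reads with it where counting ignored strand.

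**Figure D2:**
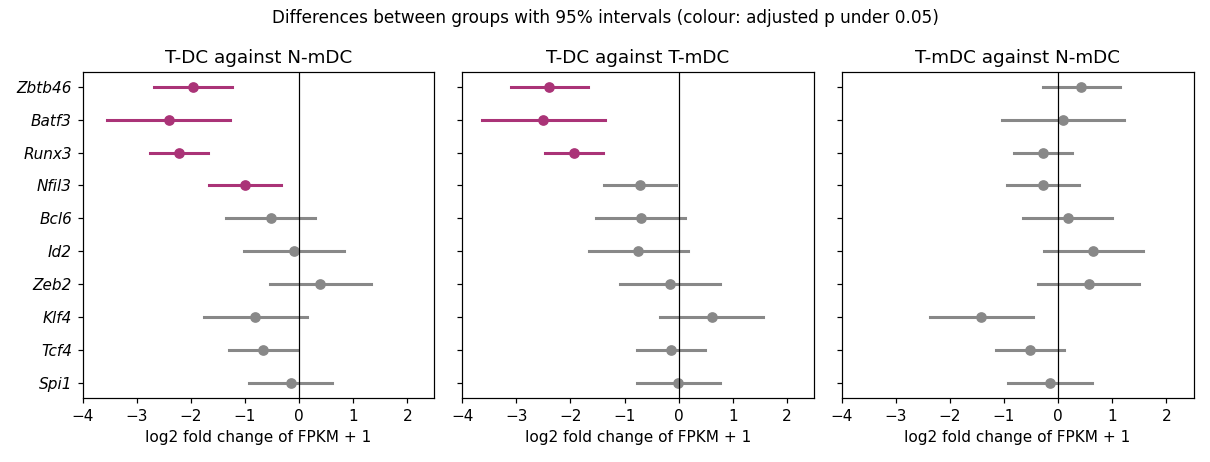
Differences between groups on the log2(FPKM + 1) scale for the 10 factors, with 95% intervals from limma; purple marks an adjusted p under 0.05. Zbtb46, Batf3 and Runx3 lie between -2.50 and -1.94 in both T-DC comparisons, Nfil3 is at -1.003 against N-mDCs with an adjusted p at the threshold, and no factor is purple for T-mDCs against N-mDCs.

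Nfil3 (ENSMUSG00000056749, chr13:52967209-52981073) encodes a bZIP repressor at the start of the cDC1 path. It was at 64.4, 78.8 and 69.9 FPKM in N-mDCs, 46.5, 62.1 and 67.2 in T-mDCs and 47.4, 41.0 and 21.6 in T-DCs. T-DCs were below every N-mDC sample, but T-DC sample 1 overlapped T-mDC sample 1. The difference from N-mDCs was -1.003 (95% interval -1.67 to -0.33), at the threshold with a limma adjusted p of 0.04997, and it passed in 7 of 24 alternative settings. Leaving out any one sample other than T-DC sample 1 ended this call (limma adjusted p = 0.0586 to 0.120), and without T-DC samples 2 and 3 it was -0.57 (0.219). The difference from T-mDCs was -0.72 (limma adjusted p = 0.142).

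Zeb2 (ENSMUSG00000026872, chr2:44983632-45117395), which Nfil3 represses, had 6.56, 4.06 and 12.4 FPKM in N-mDCs, 11.6, 10.4 and 10.5 in T-mDCs and 16.5, 8.52 and 5.97 in T-DCs. N-mDC and T-DC samples overlapped, although T-DC sample 1 was above every N-mDC sample, and the difference of 0.39 did not pass (95% interval -0.53 to 1.32, limma adjusted p = 0.522). Its antisense gene Zeb2os was listed at up to 3.06 FPKM. The ratio of Nfil3 to Zeb2, as a difference of log2(FPKM + 1), was 3.11, 3.98 and 2.40 in N-mDCs, 1.47, 2.14 and 1.70 in T-DCs and 1.91, 2.47 and 2.57 in T-mDCs. The ratio was thus lower in every T-DC sample than in every N-mDC sample (1.77 ± 0.34 against 3.16 ± 0.79, SD, n = 3) and overlapped between T-DCs and T-mDCs.

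Id2 (ENSMUSG00000020644, chr12:25093799-25097140), the inhibitor that dimerizes with E proteins, was among the most abundant factors. It was at 171, 180 and 149 FPKM in N-mDCs, 299, 252 and 237 in T-mDCs and 297, 156 and 80.6 in T-DCs. T-DC samples spanned both mature groups, with a difference of -0.10 from N-mDCs (95% interval -1.02 to 0.82) and of -0.75 from T-mDCs (-1.66 to 0.17), neither of which passed (limma adjusted p = 0.890 and 0.253). Without T-DC sample 1 the difference from T-mDCs did pass (limma adjusted p = 0.0124), and without T-DC samples 2 and 3 it was 0.18. The fit without T-DC sample 1, used again below, called far more genes. It called 39.5% of all genes against N-mDCs, 35.1% against T-mDCs and 8.11% between the mature groups.

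Tcf4 (ENSMUSG00000053477, chr18:69343356-69689079), the E protein of pDCs, had the lowest mean of the factors in every group. It had 3.23, 2.66 and 6.01 FPKM in N-mDCs, 2.80, 2.09 and 2.09 in T-mDCs and 2.93, 1.73 and 1.52 in T-DCs. Groups overlapped, and the difference of T-DCs from N-mDCs was -0.67 (95% interval -1.30 to -0.03, limma adjusted p = 0.125), which passed without T-DC sample 1 (0.0380). The ratio of Id2 to Tcf4 on the same scale, which sets the inhibitor against its target, was 5.34, 5.63 and 4.42 in N-mDCs, 6.24, 5.85 and 5.02 in T-DCs and 6.30, 6.35 and 6.27 in T-mDCs. It was highest in T-mDCs (6.31 ± 0.04, SD, n = 3), where all 3 samples exceeded every other sample. Beside this, the summed level of 15 genes of the pDC program was 517 to 944 FPKM in N-mDCs, 235 to 353 in T-mDCs and 272 to 391 in T-DCs, and their part in the Tcf4 level was not tested.

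Bcl6 (ENSMUSG00000022508, chr16:23965052-23988852) was at 36.4, 24.1 and 28.9 FPKM in N-mDCs, 28.3, 37.2 and 35.1 in T-mDCs and 36.5, 18.5 and 11.8 in T-DCs. T-DC sample 1 was as high as the highest N-mDC sample and the other 2 were below every mature sample. Differences of -0.53 from N-mDCs and -0.71 from T-mDCs did not pass (limma adjusted p = 0.325 and 0.230), although both passed without T-DC sample 1 (0.0187 and 0.0106) and were 0.30 and 0.12 without T-DC samples 2 and 3. Gm37419, on the opposite strand within Bcl6, was listed at up to 11.8 FPKM, so reads of the pair could not be told apart if strand was ignored. Bcl6 is high in germinal center B cells. The summed level of 8 B cell genes was 222 to 292 FPKM in N-mDCs, 53.1 to 184 in T-mDCs and 31.5 to 89.2 in T-DCs, and their part in the Bcl6 level was not tested.

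Klf4 (ENSMUSG00000003032, chr4:55527143-55532466), a Kruppel-like factor of cDC2 and monocytes, had the largest difference between the mature groups, which did not pass the test. It was at 143, 152 and 207 FPKM in N-mDCs, 69.8, 57.8 and 56.5 in T-mDCs and 197, 76.0 and 54.7 in T-DCs. All T-mDC samples were below all N-mDC samples, and T-DC sample 1 sat with N-mDCs while T-DC samples 2 and 3 sat near T-mDCs. The difference of T-mDCs from N-mDCs was -1.42 (95% interval -2.37 to -0.47, limma unadjusted p = 0.00842, adjusted p = 0.132), and it passed in 5 of 24 alternative settings, among them the fit without T-DC sample 1 (limma adjusted p = 0.00989), which changes the shared estimate of spread. T-DCs differed from N-mDCs by -0.81 (limma adjusted p = 0.198; 0.00287 without T-DC sample 1) and from T-mDCs by 0.61 (limma adjusted p = 0.364). Without T-DC samples 2 and 3, these differences were 0.25 and 1.67. Levels of genes of other myeloid cells are set beside these. The 8 monocyte genes summed to 353 to 723 FPKM in N-mDCs, 86.0 to 292 in T-mDCs and 505 to 943 in T-DCs, and 8 genes of red pulp macrophages, the iron-recycling cells of the spleen, to 1322 to 2091 in N-mDCs, 2208, 641 and 378 in T-DC samples 1, 2 and 3 and 229 to 1029 in T-mDCs. The monocyte sums of T-DC samples 1, 2 and 3 were 846, 943 and 505 FPKM. Gene by gene, the monocyte list in T-DCs had a median difference of -0.88 from N-mDCs, with 2 of 8 genes called lower. From T-mDCs its median difference was 1.40, with 2 of 8 genes called higher. The part of the monocyte and red pulp macrophage genes in the Klf4 level was not tested.

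Spi1 (ENSMUSG00000002111, chr2:91082390-91115756) had 213, 254 and 164 FPKM in N-mDCs, 204, 175 and 181 in T-mDCs and 307, 180 and 116 in T-DCs. The groups overlapped throughout. The difference of T-DCs was -0.16 from N-mDCs (95% interval -0.93 to 0.62) and -0.01 from T-mDCs (-0.78 to 0.76), so a log2 change of 1 in either direction lay outside both intervals. Spi1 was the 12th most abundant transcription factor gene in N-mDCs and the 10th in T-DCs and in T-mDCs.

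No factor was called between T-mDCs and N-mDCs (0 of 10 by limma, 0 by limma voom on recovered reads, and 1, Klf4, at an unadjusted p under 0.05 by limma), where 2.21% of all tested genes (1.52% lower, 0.69% higher) and 2.41% of transcription factor genes (1.56% lower) were called. Groups did not overlap for 2 of the 10 factors, Klf4 being lower and Id2 higher in T-mDCs, and for 35% of all genes, 15.7% lower and 19.3% higher. The intervals of the difference were -0.29 to 1.14 for Zbtb46, -1.05 to 1.22 for Batf3 and -0.82 to 0.26 for Runx3, so the interval of Batf3 held log2 changes of 1 in either direction.

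Because T-DC sample 1 was the highest T-DC sample for 9 of the 10 factors, each factor was also set against Spi1 within its sample, a scale chosen after the values were seen. Batf3 then stood at 0.324, 0.323 and 0.291 of the Spi1 level in N-mDCs, 0.0751, 0.0744 and 0.0378 in T-DCs and 0.252, 0.466 and 0.425 in T-mDCs. T-DC samples 1 and 2 were nearly equal on this scale. The Runx3 ratio was 0.135 ± 0.0517 (SD, n = 3) in N-mDCs, 0.0275 ± 0.0100 in T-DCs and 0.119 ± 0.0358 in T-mDCs. Nfil3 was at 0.347 ± 0.0697, 0.190 ± 0.0370 and 0.318 ± 0.0784 of Spi1. Id2 was at 1.31 to 1.47 of Spi1 in T-mDCs and at most 0.966 in all other samples. Under this scale 2 factors were called lower against N-mDCs (Batf3 at -2.26 and Runx3 at -2.07, limma adjusted p = 0.00485 and 0.0234), and Zbtb46 was not (-1.81, limma adjusted p = 0.0962). Against T-mDCs, 3 factors were called. Of all genes, 4.52% were called against N-mDCs and 5.4% against T-mDCs on this scale. The scale moved the median of all genes to 0.21 in T-DCs against N-mDCs and to 0.18 in T-mDCs against N-mDCs.

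**Figure D3:**
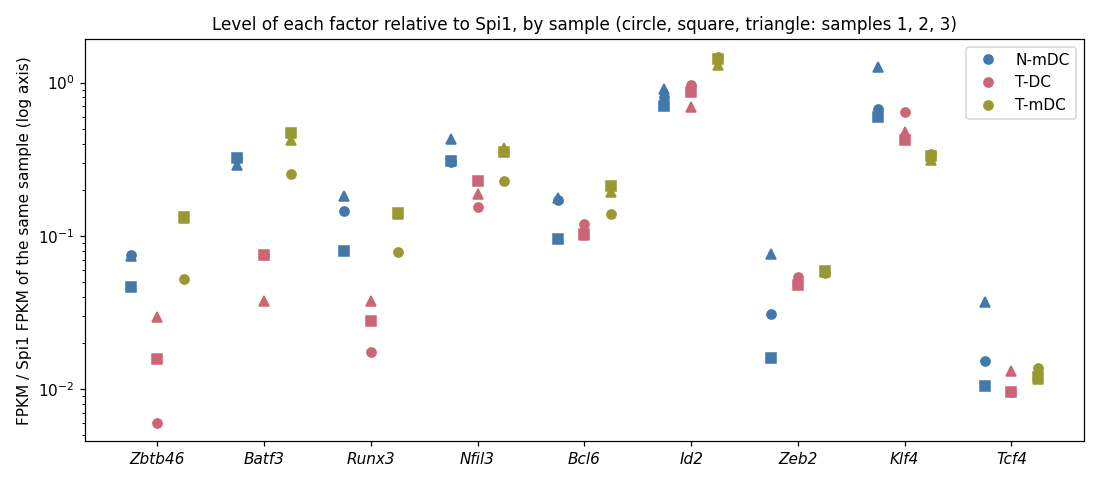
FPKM of 9 factors divided by the Spi1 FPKM of the same sample, on a log axis; colors are the groups and circle, square and triangle are samples 1, 2 and 3. T-DC samples lie below all mature samples for Zbtb46, Batf3 and Runx3, and T-mDC samples lie above all others for Id2.

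The genes most like each factor over the 9 samples were listed by Pearson r on the log2(FPKM + 1) scale, as a description that includes the differences between groups. Runx3 was followed most closely by Stra6l (r = 0.997), Fbrsl1 (0.996) and Ahr (0.994), the last encoding the aryl hydrocarbon receptor. For Zbtb46 they were Rnf43 (0.992), Ksr1 (0.989) and Lrrc1 (0.987), and for Batf3 Gm48226 (0.993), Prmt2 (0.991) and Plekho1 (0.990). Id2 was most like Mras (0.994), Klf4 most like Lrp4 (0.992), Bcl6 most like Prdm9 (0.991) and Zeb2 most like Rnf6 (0.986). Nfil3 was most like Gm8399 (0.979) and the cytokine receptor gene Il2rg (0.977), Tcf4 most like Crim1 (0.979), and Spi1 most like Coro1a (0.975), an actin regulator of leukocytes. Among the factors themselves, r was 0.931 for Batf3 with Nfil3 and 0.931 for Zbtb46 with Runx3, but -0.09 for Zbtb46 with Spi1.

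Genes that work beside these factors were counted next. Of 21 tested DC transcription factors outside the set, 8 fell and no gene rose in T-DCs against N-mDCs, and 9 fell against T-mDCs. The 4 with the largest fall against N-mDCs were Nr4a3 (-6.34), Irf4 (-3.20), Etv3 (-3.10) and Relb (-2.88). Without T-DC samples 2 and 3, the median difference of the 21 genes was -0.64 from N-mDCs and -0.86 from T-mDCs. Etv3 was then at -2.52 from N-mDCs. Irf4, the partner of Batf3 and Spi1 used in cDC2, was at 55.3, 39.6 and 46.3 FPKM in N-mDCs, 12.8, 16.7 and 16.2 in T-mDCs and 2.31, 8.49 and 3.45 in T-DCs, so that T-DCs were below both groups (limma adjusted p = 0.00150 and 0.0200). Irf8, the partner used in cDC1, was at 101, 136 and 108 FPKM in N-mDCs, 136, 180 and 181 in T-mDCs and 90.2, 36.4 and 26.3 in T-DCs. Its difference was -1.34 against N-mDCs (limma adjusted p = 0.0534) and -1.87 against T-mDCs (limma adjusted p = 0.0194). Without T-DC sample 1 the first passed (limma adjusted p = 0.000654), and without T-DC samples 2 and 3 the differences were -0.34 and -0.86 (limma adjusted p = 0.473 and 0.0938). The Irf4 call against T-mDCs was lost without T-DC sample 3 or T-mDC sample 2 or 3, and that of Irf8 without T-DC sample 2 or T-mDC sample 2 or 3 (limma adjusted p = 0.0621 to 0.0934 over both genes).

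Relatives of the factors in the same protein families did not move as one. Of 19 tested, 3 fell and 2 rose against N-mDCs, and 1 fell and 3 rose against T-mDCs. Without T-DC samples 2 and 3, the median difference of the 19 was 0.33 from N-mDCs and 0.41 from T-mDCs. Spib, the ETS relative of Spi1 used by pDCs and B cells, fell against both (-2.36 and -2.46, limma adjusted p = 0.00179 and 0.00197), while Zbtb7a, a relative of Zbtb46 and Bcl6 needed in red cell and lymphoid development, rose against both (1.47 and 0.94, limma adjusted p = 0.00228 and 0.0156). Zbtb7a was no longer called against T-mDCs without T-mDC sample 2 or 3 (limma adjusted p = 0.0934 and 0.0939) or without T-DC samples 2 and 3 (0.0575). Among 7 tested E proteins, Id proteins and ETO corepressors, Lyl1, a bHLH factor of blood progenitors and red cells, rose from 26.7 ± 9.94 FPKM (SD, n = 3) in N-mDCs to 119 ± 24.7 in T-DCs (log2 difference 2.16, limma adjusted p = 0.00916). This call was lost without T-DC samples 2 and 3 (2.10, limma adjusted p = 0.0868) and with the erythroid covariate (1.62, limma adjusted p = 0.109), and Lyl1 was at 113 FPKM in T-DC sample 1. Cbfa2t3, the ETO corepressor of E proteins, had a difference of -1.20 against N-mDCs (limma adjusted p = 0.0353) that was lost without any one of N-mDC samples 1 to 3, T-DC samples 2 and 3 or T-mDC samples 2 and 3 (0.0537 to 0.121), and was -0.70 with T-DC samples 2 and 3 both left out (0.303).

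Genes used to tell the 3 lineages apart were then counted. Of 13 cDC1 program genes, 6 fell in T-DCs against N-mDCs and 11 against T-mDCs, with medians of -1.38 and -2.83. Without T-DC samples 2 and 3, these medians shrank to -0.66 and -1.82. Clec9a, a receptor for dead cells, was at 33.6 ± 4.27 FPKM (SD, n = 3) in N-mDCs, 6.24 ± 4.56 in T-DCs and 58.0 ± 15.3 in T-mDCs. Its log2 differences in T-DCs were -2.43 and -3.17 (limma adjusted p = 0.00654 and 0.00261). Without T-DC samples 2 and 3 they were -1.47 and -2.21. The chemokine receptor gene Xcr1 was at 14.4 ± 3.96, 3.26 ± 3.11 and 50.8 ± 22.0 FPKM, and its call against N-mDCs (-2.07, limma adjusted p = 0.0319) was lost without any one of N-mDC samples 1 to 3 or T-DC samples 2 and 3 (0.0728 to 0.109), and was -0.95 with both of these left out (0.327). Cd24a went the other way, at 30.3, 1192 and 1097 FPKM in T-DC samples 1, 2 and 3. Its difference was 2.32 against N-mDCs, which did not pass, and the part of red cell reads in it was not tested. Of 14 cDC2 program genes, 10 fell against N-mDCs (median -2.21), led by Cd209a (-4.50), Dtx1 (-3.995), Clec4a4 (-3.71) and Cd7 (-3.42), and 7 fell and 2 rose against T-mDCs (median -1.60). Without T-DC samples 2 and 3, the cDC2 program medians were -1.66 against N-mDCs and -1.09 against T-mDCs. Of 15 pDC program genes, 5 fell against N-mDCs and 2 against T-mDCs, and 2 and 1 were called lower without T-DC samples 2 and 3. Apart from Spib, the called pDC genes with the largest falls, Lag3, Bst2 and Pacsin1 (-1.35 to -1.10), each lost the call without N-mDC sample 2 or 3 or T-DC sample 2 or 3, and without both of these T-DC samples (limma adjusted p = 0.209 to 0.368). Between T-mDCs and N-mDCs, the cDC1 median was 1.45 with 12 of 13 genes above 0 but 0 called by limma (9 at an unadjusted p under 0.05), 1 cDC2 program gene fell (Cd209a, -1.98) and 1 rose (Mgl2, 1.04), and 3 pDC program genes fell, among them Siglech (-3.37).

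**Figure D4:**
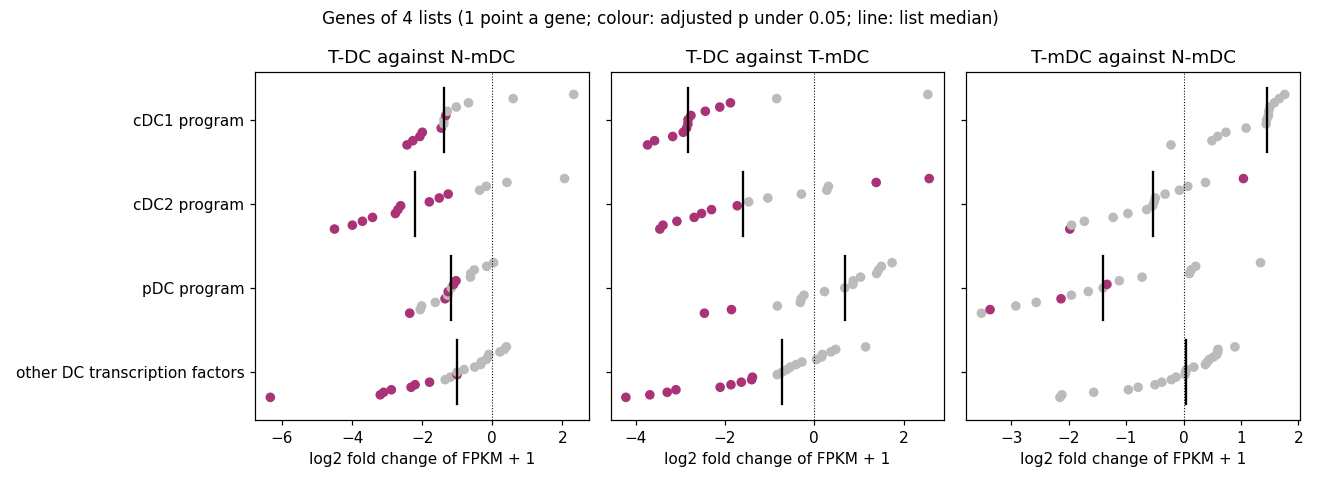
Differences on the log2(FPKM + 1) scale for the genes of the cDC1, cDC2 and pDC programs and of other DC transcription factors; each point is a gene, purple marks an adjusted p under 0.05 and the black line is the median of the list. The cDC1 median lies at -1.38 for T-DCs against N-mDCs, at -2.83 against T-mDCs and at 1.45 for T-mDCs against N-mDCs.

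The red cell reads were also entered as a covariate, the mean log2 level of the erythroid genes. Runx3 stayed lower against N-mDCs (-1.86, limma adjusted p = 0.0177), and Zbtb46 was at -1.98 (0.0515) and Batf3 at -1.61 (0.158). Against T-mDCs 0 factors and 0 of all 12746 genes were called by limma (1841 genes at an unadjusted p under 0.05), with Zbtb46 at -2.41, Runx3 at -1.41 and Batf3 at -1.33. The red cell share of reads was 0.0586% in T-DC sample 1 and 0.432% in N-mDC sample 2. In T-DC sample 1, Zbtb46, Batf3 and Runx3 were at 1.84, 23.1 and 5.36 FPKM, each below the lowest value of either mature group. Its red pulp macrophage genes summed to 2208 FPKM and its monocyte genes to 846. The part of red cell, macrophage or monocyte reads in these levels was not tested.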

How the data were processed

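RNA-seq values of 9 samples were used as the authors deposited them: FPKM for 54532 genes with the length of each gene and no counts. The sequencing provider made the libraries with standard protocols, and mm10 is named in the submitters' processing notes; the aligner, the counter and the use of strand are not given in the sources used here. FPKM multiplied by length gave whole reads, with a largest deviation of 4.56e-05 reads. Columns were assigned to groups by the library names in the labels, with 0 columns left unassigned.

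Levels were analyzed as log2(FPKM + 1), so differences of low genes are understated. All 3 groups were fitted together in limma 3.58.1 under R 4.3.3 (lmFit, contrasts.fit, eBayes with trend), two-sided, with p-values adjusted by Benjamini-Hochberg over 12746 genes and 95% intervals unadjusted. The script was tested on simulated data. The factors and gene lists were chosen with earlier results of these data known, and no list was tested as a set. Genes named beside the factors are Irf4 and Irf8, up to 4 called genes per list with the largest difference of T-DCs from N-mDCs, defining markers, and the 3 genes most like each factor. Cd24a and Lyl1 in T-DC sample 1 were picked out after their values were seen. Promoters came from RefSeq (GRCm38.p6), and figures were drawn with matplotlib 3.10.9.

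Alternatives were a pseudocount of 0.1, no filter, a filter of 5 FPKM, TPM, quantile and median-of-ratios scaling, fits of 2 groups, array weights, no variance trend, a replicate block, the mean of T-mDC samples 2 and 3, an erythroid covariate, limma voom on recovered reads and leaving out each sample. Levels relative to Spi1 and leaving out T-DC samples 2 and 3 together were added after seeing the data. The labels do not say that samples came from separate animals, so p-values measure only the spread between these samples.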

Additional observations from a re-analysis of the deposited data

How the results depend on the processing

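Of 10 factors, 3 were called over the groups, 4 when T-DCs were set against N-mDCs, 3 against T-mDCs, and 0 between the mature groups. Numbers are given in this order. With array weights they were 8, 7, 7 and 4, where 66.6%, 77.9% and 30.1% of all genes were called in the 3 comparisons. The erythroid covariate gave 1, 0 and 1 in the 3 comparisons, where 4.15%, 0% and 2.19% of all genes were called. Fits of only the 2 groups gave 1 for T-mDCs against N-mDCs (6.67% of all genes). Levels relative to Spi1 gave 2 against N-mDCs (4.52% of all genes). Leaving out 1 sample gave 3 to 7, 2 to 7, 2 to 6 and 0 to 1, with the highest numbers (7, 7, 6 and 1) without T-DC sample 1. In that fit 39.5%, 35.1% and 8.11% of all genes were called in the 3 comparisons. With T-mDC samples 2 and 3 averaged into 1 sample, they were 3, 3, 2 and 0, where 10.9%, 4.24% and 0.18% of all genes were called in the 3 comparisons. The replicate block gave 3, 3, 3 and 0, where 10.8%, 9.83% and 0.612% of all genes were called in the 3 comparisons. The only call it changed among the factors was Nfil3 (limma adjusted p = 0.0825). Same-numbered samples deviated together with r from -0.47 to 0.27, and differently numbered samples with r from -0.36 to 0.43. With 3 samples a group, this cannot tell whether same-numbered samples came from the same mice. Against N-mDCs, calls were kept in 24 of 24 alternatives for Runx3, 22 for Zbtb46, 20 for Batf3 and 7 for Nfil3, and against T-mDCs in 23 for Runx3, 23 for Zbtb46 and 19 for Batf3. Over all alternatives, 630 values of the factors kept direction and side of the threshold, 22 became called, 30 lost the call and 32 changed sign; no change of sign concerned a called value. Tcf4 had no value under the filter of 5 FPKM and Spi1 none relative to itself.

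Signs changed between the mature groups (T-mDCs minus N-mDCs) in Spi1 (0.068 as TPM, 0.12 by quantile normalization), Batf3 (-0.016 with T-mDC samples 2 and 3 averaged, -0.28 with the erythroid covariate) and Bcl6 (-0.23 with the covariate). Against N-mDCs the covariate gave Id2 0.58, Klf4 0.012, Bcl6 0.35 and Spi1 0.32, and against T-mDCs Id2 0.24, Tcf4 0.37, Zeb2 0.95, Bcl6 0.58, Spi1 0.69, Lag3 0.13 and Klf6 0.33. Leaving out 1 sample spanned 0, for T-DCs against N-mDCs, in Id2 (-0.56 to 0.37) and Spi1 (-0.52 to 0.18), against T-mDCs in Zeb2 (-0.54 to 0.13), Spi1 (-0.37 to 0.33) and Lag3 (-0.59 to 0.11), and between the mature groups in Batf3 (-0.13 to 0.29). Relative to Spi1, Id2 was 0.059 against N-mDCs. Without T-DC samples 2 and 3, the values against N-mDCs were Id2 0.83, Klf4 0.25, Bcl6 0.30 and Spi1 0.57, and against T-mDCs Id2 0.18, Tcf4 0.25, Zeb2 0.57, Bcl6 0.12, Spi1 0.72 and Lag3 0.48. The log2 ratio of Id2 to Tcf4 in T-mDCs was 6.76 with a pseudocount of 0.1 and 6.48 by quantile normalization. TPM moved the median of all genes to -0.23 in T-DCs against T-mDCs and to 0.21 in T-mDCs against N-mDCs. The causes were not tested.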
